A study of Homo sapiens with 4 samples.

Results

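The genes described here build the junctions and the intermediate filament skeleton of epithelial cells. They are the cadherins CDH1 and CDH2, the tight junction genes CLDN1, CLDN2, CLDN14, OCLN and TJP1, and the filament genes VIM, KRT8 and KRT18. The 10 genes were looked up by symbol in a table of 18806 gene symbols, and 9 were found. TJP1, which encodes the tight junction scaffold ZO-1, was not analysed here. The study sequenced RNA of Huh7, an established line from a human hepatocellular carcinoma, to compare cells that received a guide against METTL16 with control cells. METTL16 encodes an RNA methyltransferase that places a methyl mark on adenosines. All cells descended from 1 Cas9-expressing clone, selected with blasticidin, and were then transduced with a lentiviral guide and selected with hygromycin. The control group received the non-targeting guide sgNS and carries the genotype label WT (2 libraries), and the other received the guide sgMETTL16 (2 libraries), whose label reads METTL16 knockdown and which is called METTL16 KO below, after the study. Both groups therefore carried Cas9. The study's captions for this experiment do not say which METTL16 guide was used, or whether there was more than 1.

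Cadherins are adhesion proteins that hold neighbouring cells together at adherens junctions and are anchored to actin through catenins. Claudins and occludin form the strands of the tight junction, which seals the space between epithelial cells and, in liver, separates bile canaliculi from blood, while ZO proteins tie these strands to the cytoskeleton. Keratins 8 and 18 pair to form the filament network of hepatocytes, and vimentin forms that of mesenchymal cells. In the textbook account of the epithelial to mesenchymal transition, cells exchange E-cadherin, claudins and keratins for N-cadherin and vimentin.

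The values are TPM, transcript abundances that are corrected for length and scaled to the same total of 1000000 in each library, so that levels of different genes can be set side by side. Since reads cannot be counted back from TPM, sequencing depth and counting error are unknown. Each gene was tested on log2(TPM + 0.1) by limma, a linear model whose estimate of the spread draws on all genes, among the 11971 genes whose mean over all libraries was 1 TPM or more. A call was made at a Benjamini-Hochberg adjusted p under 0.05 over all of these genes. Fold changes are differences on this log2 scale, METTL16 KO minus sgNS, and understate the change of genes with low values. The study describes 2 biological replicates for its sequenced RNA samples, but the labels do not say whether these came from separate cultures. The p-values therefore measure only the spread between these libraries, and what that spread covers is not known further. METTL16 itself stood at 26.3 and 25.1 TPM in the sgNS libraries and was lower, at 17.6 and 18.8 TPM in those of METTL16 KO. The groups did not overlap, and the log2 fold change was -0.50 (SE, the standard error, 0.062, adjusted p = 2.4e-05, limma). METTL16 transcript remained in METTL16 KO, and RNA-seq does not measure the protein.

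Of the 8 members tested, 7 rose in METTL16 KO and 1, CDH1, fell. CLDN1 rose most, from about 138 to 581 TPM, followed by OCLN and KRT8, and CDH2, KRT18, CLDN14 and VIM rose less. CLDN2 lay under the filter, at 0.54 to 0.71 TPM in all 4 libraries, and was not tested. Members usually counted as epithelial and members usually counted as mesenchymal were thus both among those that rose. Among all genes tested, 50.1% were higher and 25.6% were lower by the same call. The share of higher genes depends on the scale: 5999 genes were higher and 3065 lower on the TPM as deposited, against 4046 and 4651 after median-ratio scaling, which sets the typical gene to no change, and 4420 and 4248 after quantile normalization. The median log2 fold change was 0.86 over the 8 members tested and 0.16 over all genes tested. The second of these was -0.03 after median-ratio scaling and 0.01 after quantile normalization. The members moved with the scale too. KRT18 and CDH2, the middle ones by log2 fold change, had 0.60 and 0.73 after median-ratio scaling and 0.79 each after quantile normalization. When the call instead required p under 0.01 before adjustment and a change of at least 1 on the log2 scale, 3 of the 8 passed, CLDN1, OCLN and KRT8, all higher, beside 7.69% of all genes that passed as higher and 3.75% that passed as lower. For each of the 8 the 2 groups did not overlap, as was the case for 87.4% of all genes tested. All 8 had a mean of at least 1 TPM in each group, so none passed the filter through its higher group alone.

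**Figure D1:**
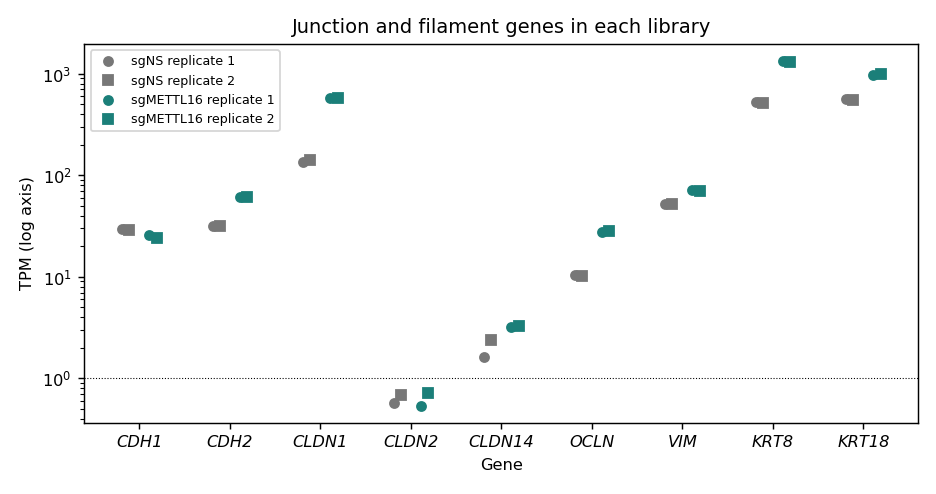
TPM of the 9 members in each library, on a log axis, with 1 point per library (circles, replicate 1; squares, replicate 2; grey, sgNS; green, METTL16 KO, called sgMETTL16 in the plot) and a dotted line at the filter of 1 TPM. CLDN1 moves from 135 and 142 TPM to 583 and 579 TPM, KRT8 overtakes KRT18, and CLDN2 lies between 0.54 and 0.71 TPM in both groups.

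The order of the levels changed at 2 places. In sgNS it ran KRT18 (mean of 563 TPM), KRT8 (517), CLDN1 (138), VIM (52.4), CDH2 (32.0), CDH1 (29.4), OCLN (10.3), CLDN14 (2.0) and CLDN2 (0.63). In METTL16 KO, KRT8 (1311 TPM) stood above KRT18 (978) and OCLN (27.8) above CDH1 (24.8), and the other places were the same. Within each group, no neighbours in this order overlapped between libraries. The rises spread widely over the table: ranked by log2 fold change among the 11971 genes, CLDN1 was at place 184, OCLN at 429, KRT8 at 485, CDH2 at 1059, KRT18 at 1418, CLDN14 at 1787, VIM at 3377 and CDH1 at 9429.

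The bases just upstream of the start site are shown for 4 of the members that rose. They are CLDN1 and OCLN from the tight junction, CDH2 from the cadherins and VIM from the filaments. Each run is the 250 bases before the start of the canonical transcript, 5′ to 3′ on the gene's strand, from RefSeq on GRCh38.p14. CLDN1 is chr3:190322447-190322696 on the minus strand, OCLN is chr5:69492540-69492789 on the plus strand, CDH2 is chr18:28177131-28177380 on the minus strand, and VIM is chr10:17227991-17228240 on the plus strand. Capitals mark matches, on either strand, to the E-box CAGGTG, which proteins of the SNAI and ZEB families bind, and to the GC box GGGCGG, which SP1 binds. Another motif, TGANTCA of the AP-1 family, was searched as well. No matches overlapped.
CLDN1: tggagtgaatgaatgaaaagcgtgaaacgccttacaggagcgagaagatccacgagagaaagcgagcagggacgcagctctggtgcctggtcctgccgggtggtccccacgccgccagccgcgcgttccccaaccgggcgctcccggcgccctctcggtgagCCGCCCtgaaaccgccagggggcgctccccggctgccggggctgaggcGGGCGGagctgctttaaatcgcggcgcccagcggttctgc
OCLN: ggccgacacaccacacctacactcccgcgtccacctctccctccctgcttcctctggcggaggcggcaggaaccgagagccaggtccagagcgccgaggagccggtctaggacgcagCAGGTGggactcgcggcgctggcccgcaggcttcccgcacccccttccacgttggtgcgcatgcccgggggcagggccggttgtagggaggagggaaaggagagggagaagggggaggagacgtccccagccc
CDH2: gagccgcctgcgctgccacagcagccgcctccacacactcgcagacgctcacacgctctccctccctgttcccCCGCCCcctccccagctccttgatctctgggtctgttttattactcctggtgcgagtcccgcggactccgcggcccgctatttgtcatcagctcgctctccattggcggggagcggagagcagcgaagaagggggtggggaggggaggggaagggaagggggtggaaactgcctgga
VIM: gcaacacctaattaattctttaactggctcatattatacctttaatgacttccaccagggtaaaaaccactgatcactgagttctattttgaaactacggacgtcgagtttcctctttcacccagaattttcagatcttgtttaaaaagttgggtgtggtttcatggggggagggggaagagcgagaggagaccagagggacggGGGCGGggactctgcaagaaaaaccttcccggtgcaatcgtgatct
The E-box was found once, in OCLN, 133 bases before the start. The GC box was found in CLDN1 (88 and 40 bases before the start), in CDH2 (177 bases before) and in VIM (46 bases before). TGANTCA was found in none of these windows. Among 35116 windows of the same length before annotated starts, 17.5% held CAGGTG, 42.6% held GGGCGG and 6.57% held TGANTCA. The window of CLDN14, chr21:36480123-36480372 on the minus strand, held none of the 3. GC content was 68.8% for CLDN1, 70.8% for OCLN, 66.0% for CDH2, 48.4% for CLDN14 and 46.0% for VIM. In all, 7 of the 9 genes had an entry in the RefSeq table and 5 had it at the canonical start, and CDH1 and KRT18 were not matched. These matches describe the letters only.

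The cadherins moved in opposite directions, so that the cells went from nearly equal levels of both to more CDH2 than CDH1. CDH1 (chromosome 16, 68737292 to 68835537, plus strand of GRCh38) encodes E-cadherin, the cadherin of epithelial adherens junctions. It stood at 29.8 and 29.0 TPM in the sgNS libraries and at 25.7 and 23.9 TPM in those of METTL16 KO. The METTL16 KO libraries were the lower ones without overlap, and CDH1 fell by 0.25 on the log2 scale (SE 0.059, adjusted p = 0.0027, limma). The call of CDH1 was lost without METTL16 KO replicate 2 (log2 fold change -0.19, adjusted p = 0.053) and in a linear model per gene without limma's moderation (adjusted p = 0.079). Its size depended on the scale, at -0.44 after median-ratio scaling and -0.42 after quantile normalization.

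CDH2 (chromosome 18, 27932879 to 28177946, minus strand) encodes N-cadherin, which hepatocytes carry beside E-cadherin and which is also a mark of mesenchymal cells. Its TPM were 31.9 and 32.0 in sgNS and 60.8 and 61.1 in METTL16 KO. The libraries of each group were nearly identical and the groups lay far apart, with a log2 fold change of 0.93 (SE 0.046, adjusted p = 2.0e-08, limma). The ratio of CDH1 to CDH2 TPM was 0.936 and 0.906 in sgNS and 0.423 and 0.391 in METTL16 KO, a log2 difference of -1.18. The ratio of CDH1 to VIM TPM went from 0.572 and 0.551 to 0.357 and 0.342, a log2 difference of -0.69. For these ratios an exact two-sided permutation test gave p = 0.333, the smallest that 2 libraries against 2 allow.

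Other cadherins were added to this pair. Of the 23 cadherin symbols in the table, 6 were tested. Of these, 5 were higher and 1, CDH1, was lower, beside 50.1% higher and 25.6% lower among all genes tested. After either median-ratio scaling or quantile normalization 4 cadherins were higher and 1 was lower. CDH17, the liver-intestine cadherin, had the largest rise, from 2.93 and 3.26 TPM to 49.4 and 46.1 TPM (log2 fold change 3.91, adjusted p = 2.8e-11, limma). CDH9, which was chosen after its values were seen, rose from 2.56 and 2.73 TPM to 11.6 and 11.9 TPM (log2 fold change 2.11, adjusted p = 1.3e-08, limma). Of the summed cadherin TPM, CDH1 and CDH2 together made 80.6% and 80.7% in sgNS and 53.1% and 53.6% in METTL16 KO. The share of CDH17 went from 3.83% and 4.31% to 30.3% and 29.1%, while that of CDH1 went from 39.0% and 38.4% to 15.8% and 15.1%.

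CLDN1 (chromosome 3, 190305707 to 190322446, minus strand) encodes claudin-1, a sealing claudin of epithelia and a coreceptor for the hepatitis C virus. It stood at 135 and 142 TPM in the sgNS libraries and reached 583 and 579 TPM in those of METTL16 KO. This was the largest change among the members tested, 4.20 times the sgNS mean, with a log2 fold change of 2.07 (SE 0.035, adjusted p = 8.7e-12, limma). Within 500 kb of CLDN1, 3 other genes were tested and all 3 were called higher, as were 50.1% of all genes tested. P3H2 had a log2 fold change of 1.88, IL1RAP 1.04 and the claudin CLDN16 0.23 (adjusted p = 0.038, limma). The last lay near the median of all genes tested, 0.16, and CLDN16 was not called higher after median-ratio scaling or quantile normalization. Around the other members, between 0 and 16 genes were tested within the same distance, and their median log2 fold change lay between -0.04 around CLDN14 and 0.37 around CLDN2.

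OCLN (chromosome 5, 69492292 to 69558104, plus strand) encodes occludin, a transmembrane protein of tight junction strands and likewise an entry factor for that virus. Its TPM were 10.5 and 10.1 in sgNS and 27.5 and 28.1 in METTL16 KO. The groups were well apart, with a log2 fold change of 1.43 (SE 0.063, adjusted p = 8.2e-09, limma). The annotation holds 1 pseudogene named for OCLN, and how reads were shared with it is not given in the sources used here.

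CLDN14 (chromosome 21, 36460621 to 36576569, minus strand), a cation-restricting claudin known from the inner ear and kidney, was a low transcript, at 1.61 and 2.39 TPM in sgNS and 3.24 and 3.25 TPM in METTL16 KO. The sgNS libraries were farther apart than the METTL16 KO libraries, but the groups did not overlap (log2 fold change 0.70, SE 0.19, adjusted p = 0.0054, limma). The call of CLDN14 was lost after quantile normalization (log2 fold change 0.44, adjusted p = 0.062) and without moderation (adjusted p = 0.16), and its log2 fold change was 0.43 without sgNS replicate 1. CLDN2 (chromosome X, 106900164 to 106930861, plus strand), which forms a channel for cations and water, was measured at 0.57 and 0.69 TPM with sgNS, against 0.54 and 0.71 TPM after METTL16 KO. These groups overlapped, and in a fit without the filter the log2 fold change was -0.02 (SE 0.22, adjusted p = 0.96, limma).

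The claudins as a family did not move in 1 direction. Of the 24 claudin symbols in the table, 18 were above 0 in some library and 11 were tested. Of these, 5 were higher, 4 were lower and 2 did not pass, beside 50.1% higher and 25.6% lower among all genes tested. After median-ratio scaling 4 were higher and 5 lower, and after quantile normalization 3 and 5. CLDN1 was the most abundant claudin in every library, and it made 56.0% and 57.2% of the summed claudin TPM in sgNS but 85.3% and 84.5% in METTL16 KO. The sum itself went from 241 and 248 TPM to 684 and 685 TPM, a log2 difference of 1.48 (exact two-sided permutation p = 0.333, the smallest possible). CLDN12, the next in abundance, was lower, with 45.3 and 47.7 TPM in sgNS and 35.2 and 35.9 TPM in METTL16 KO (log2 fold change -0.39, adjusted p = 3.6e-05, limma), and its share of the sum went from 18.8% and 19.2% to 5.14% and 5.24%. CLDN12 was named after its values were seen.

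**Figure D2:**
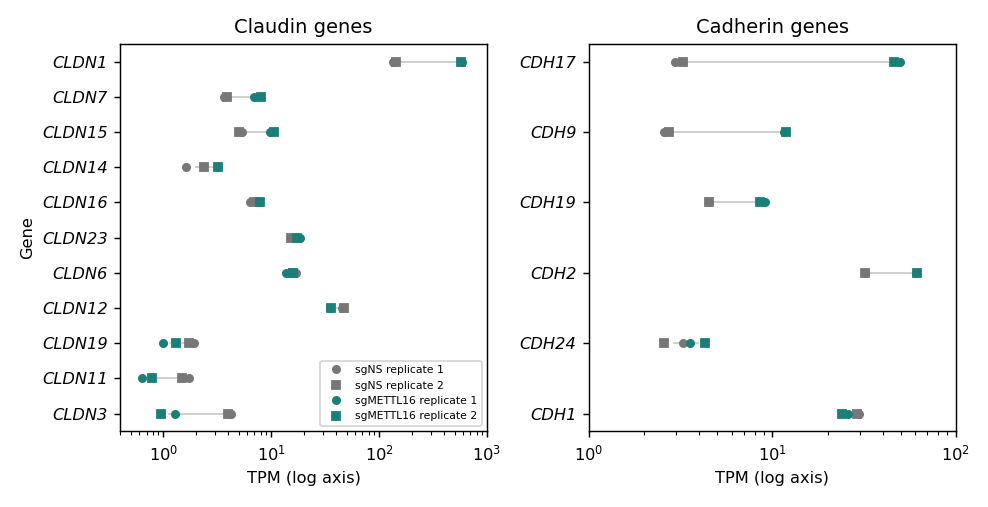
TPM of the 11 claudin and 6 cadherin genes tested, on log axes, with 1 point per library (circles, replicate 1; squares, replicate 2; grey, sgNS; green, METTL16 KO) and a line between the group means. CLDN1 stands apart from all other claudins in both groups, CDH17 moves farthest among the cadherins, and CDH1 and CLDN12 are among the genes that lie lower in METTL16 KO.

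Both hepatocyte keratins rose, with the larger log2 fold change in KRT8. KRT8 (chromosome 12, 52897187 to 52949954, minus strand) encodes the type II keratin of simple epithelia. It stood at 524 and 511 TPM in the sgNS libraries and reached 1329 and 1293 TPM in those of METTL16 KO. The groups were 2.53-fold apart in their means, with a log2 fold change of 1.34 (SE 0.029, adjusted p = 4.2e-11, limma). KRT18 (chromosome 12, 52948871 to 52952906, plus strand) encodes its type I partner. It stood at 569 and 557 TPM in the sgNS libraries and reached 969 and 986 TPM in those of METTL16 KO. This was a smaller rise, of 1.74-fold in the means, with a log2 fold change of 0.80 (SE 0.028, adjusted p = 1.4e-09, limma).

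The ratio of KRT8 to KRT18 TPM was 0.921 and 0.917 in sgNS and 1.37 and 1.31 in METTL16 KO, a log2 difference of 0.54 (exact two-sided permutation p = 0.333, the smallest possible). The annotation holds 51 pseudogenes named for KRT8 and 68 named for KRT18, so that their values are uncertain as far as reads could be split. The annotated spans of these genes overlap by 1084 bases on opposite strands, through other transcripts than the canonical ones, which lie 44041 bases apart. Whether the counting used the strand is not given in the sources used here. The pair made 98.5% and 98.2% of the summed keratin TPM in sgNS and 99.0% in both METTL16 KO libraries. Of the 54 keratin symbols, 11 were above 0 in some library. The keratin sum went from 1109 and 1086 TPM to 2323 and 2302 TPM, a log2 difference of 1.08.

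VIM (chromosome 10, 17228241 to 17237593, plus strand) encodes vimentin, the filament protein of mesenchymal cells that many cultured lines also make. It stood at 52.1 and 52.6 TPM in the sgNS libraries and reached 72.2 and 69.9 TPM in those of METTL16 KO. Both METTL16 KO libraries were higher, and the log2 fold change was 0.44 (SE 0.044, adjusted p = 4.5e-06, limma). Its size depended on the scale, at 0.24 after median-ratio scaling and 0.32 after quantile normalization, and it passed in both. An antisense gene, VIM-AS1, overlaps VIM, and without knowledge of the strand setting their reads cannot be told apart. Annotated genes on the opposite strand also overlap CDH1, CDH2, CLDN2, CLDN14 and OCLN, so the same limit holds there. At the low CLDN2 this includes MORC4, with 9.75 and 8.54 TPM in sgNS and 11.9 and 11.7 TPM in METTL16 KO.

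**Figure D3:**
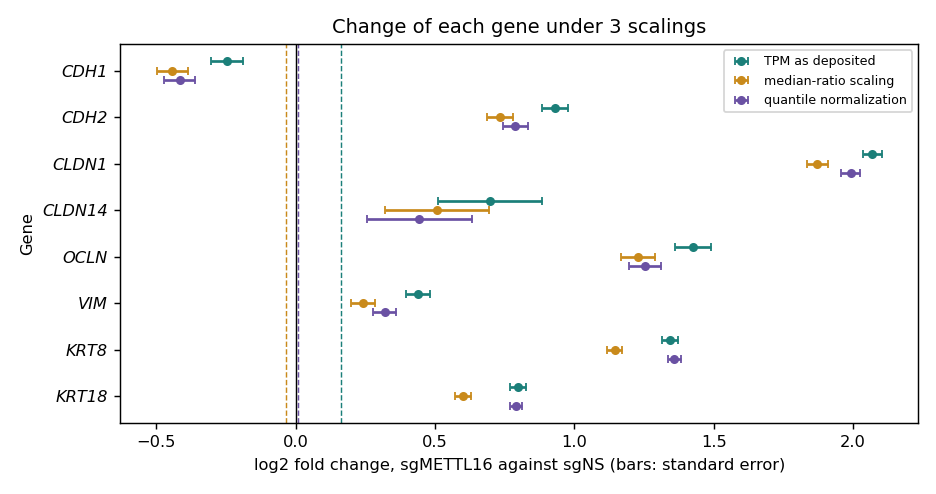
Log2 fold change (METTL16 KO minus sgNS) of the 8 members tested, with bars for the standard error, from the TPM as deposited (green) and after median-ratio scaling (yellow) and quantile normalization (purple), with a dashed line at the median of all genes tested for each. CLDN1 is highest at 2.07 on the TPM as deposited, and CDH1 alone lies below 0, on all 3 scales.

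The other genes of these pathways were described from 9 lists of 217 genes, all found in the table, of which 110 were tested. In all, 54 (49.1%) were higher, 33 (30.0%) were lower and 23 did not pass, with a median log2 fold change of 0.12, so the shares of both directions lay near those of all genes tested, 50.1% and 25.6%. Of the 110, 7 had a mean under 1 TPM in 1 group and passed the filter through the other (CLDN11, PPL, KRT23, OVOL1, SPINT1, TAGLN and SPARC). Without limma's moderation 34 were higher and 21 lower, and of the genes named below F11R, CLDN11, EPPK1, DSP, KRT23, KRT10, LMNB2, LMNA, CRB3, PARD6G, GJD3, SNAI1, TAGLN and S100A4 then lost their calls, with adjusted p from 0.051 (DSP) to 0.21 (SNAI1). Below, changes are from limma at an adjusted p under 0.05 unless a value is given.

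Among adherens junction genes, 12 of 15 tested were higher, 1 was lower and 2 did not pass (median log2 fold change 0.71). Over all genes tested 50.1% were higher and 25.6% lower. After median-ratio scaling 10 adherens junction genes were higher and 3 lower. After CDH17, the largest rises on this list, which does not hold CDH9, were in CTNND2 (log2 fold change 1.44), a delta-catenin, and CDH19 (0.96), a cadherin of cells from the neural crest. CTNNB1, the beta-catenin that links cadherins to alpha-catenin and carries Wnt signals, was the gene that fell, from 454 and 447 TPM to 377 and 365 TPM (log2 fold change -0.28, adjusted p = 1.1e-05, limma, and -0.48 after median-ratio scaling). CTNND1, which encodes the p120 catenin that stabilizes cadherins at the membrane, had a log2 fold change of 0.08 (adjusted p = 0.062, limma). JUP, or plakoglobin, had -0.05 (adjusted p = 0.37, limma).

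The rest of the tight junction list was mixed. Of 23 genes tested, 7 were higher, 9 were lower and 7 did not pass (median log2 fold change 0.03), and lower genes outnumbered higher ones by 11 to 3 after median-ratio scaling and by 12 to 5 after quantile normalization. The claudins CLDN7 (log2 fold change 0.99) and CLDN15 (0.95) and the adhesion molecule F11R (0.38, and 0.18 after median-ratio scaling) rose most. CLDN3 fell most, from 4.23 and 3.99 TPM to 1.28 and 0.96 TPM (log2 fold change -1.80, adjusted p = 4.0e-06, limma), followed by CLDN11 (-1.09, with -1.82 after quantile normalization and -0.61 with a pseudocount of 1) and MARVELD3 (-0.78), a relative of occludin. Of the cytoplasmic scaffolds, TJP3 (-0.63) and cingulin, CGN (-0.59), fell.

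Of the 12 desmosome and plakin genes tested, 7 were higher and 5 lower (median log2 fold change 0.28), and after either scaling 6 and 5. Epiplakin, EPPK1 (log2 fold change 1.10), periplakin, PPL (1.06, and 0.63 after quantile normalization), and dystonin, DST (0.77), cytolinkers that tie filaments to junctions, rose most. The desmosomal cadherins DSC2 (-0.49) and DSG3 (-0.32) and the plaque protein desmoplakin, DSP (-0.36, and -0.56 after median-ratio scaling), fell most. DSG3, which had -0.52 after median-ratio scaling, lost its call without each of the 4 libraries, with adjusted p between 0.060 and 0.097 in limma. Among the other filament genes, 31 of 47 were listed at 0 in every library, and of 7 tested 3 were higher and 3 lower (median log2 fold change -0.03). KRT23 (1.73) and KRT10 (0.51, and 0.31 after median-ratio scaling) rose. Nestin, NES (-0.79), and the lamins LMNB1 (-0.73) and LMNA (-0.26, and -0.46 after median-ratio scaling) fell. The third gene called higher, LMNB2 (0.17), had -0.026 after median-ratio scaling, and it lost its call there, after quantile normalization and without METTL16 KO replicate 1 (adjusted p = 0.065, limma).

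Of the 19 polarity genes tested, whose complexes set apical and basolateral sides apart, 6 were higher and 7 lower (median log2 fold change -0.13), against 4 and 12 after median-ratio scaling and 5 and 12 after quantile normalization. PARD6A (1.91), PARD3B (0.76) and CRB3 (0.75) rose most, and LLGL1 (-1.07), PARD6G (-0.59) and DLG1 (-0.47) fell most. The 6 gap junction genes tested were the connexins GJA1, GJB1, GJB2, GJC1 and GJD3 and the pannexin PANX1. Of these, 5 were higher and 0 lower (median 0.78), beside 50.1% higher and 25.6% lower among all genes tested. After either scaling 4 were higher. GJB1, the main connexin of hepatocytes, rose from 38.8 and 37.1 TPM to 94.8 and 97.7 TPM (log2 fold change 1.34, adjusted p = 1.2e-09, limma). GJA1 (1.17) and GJD3 (0.86) rose as well.

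**Figure D4:**
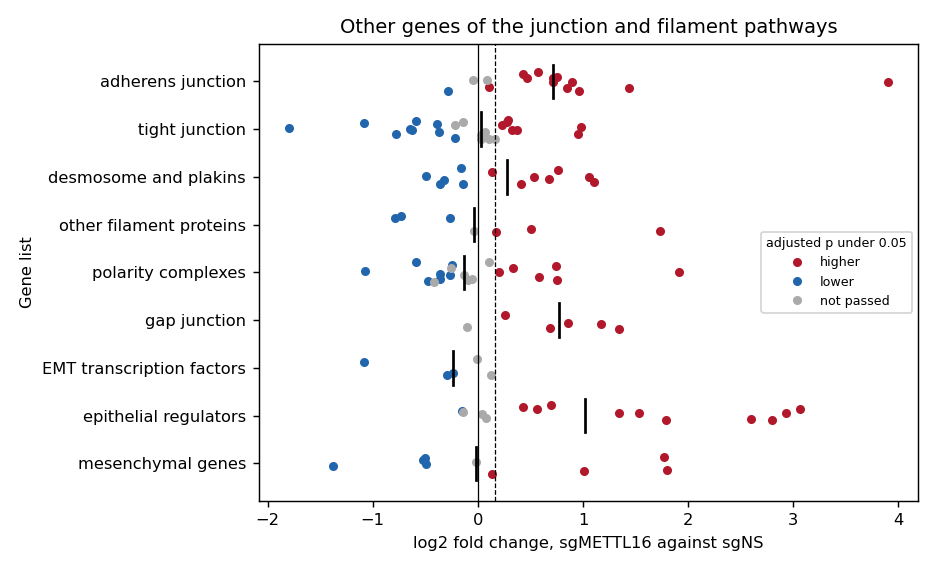
Log2 fold change (METTL16 KO minus sgNS) of each gene tested in the 9 pathway lists, with 1 point per gene (red, higher; blue, lower; grey, not passed at an adjusted p under 0.05), a black bar at each list's median and a dashed line at the median of all genes tested, 0.16. Adherens junction genes (12 of 15), gap junction genes (5 of 6) and epithelial regulators (10 of 14) are mostly higher. Over all genes tested 50.1% are higher on this scale. The tight junction and polarity lists are split. All lists were written with earlier results of these data known.

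The transcription factors of the epithelial to mesenchymal transition include repressors of CDH1. Of 5 tested, 0 rose, 3 fell and 2 did not pass (median log2 fold change -0.23), and after either scaling 4 fell. SNAI3 (-1.08) and TCF3 (-0.29, and -0.49 after median-ratio scaling) fell. SNAI1 was measured at 20.4 and 20.1 TPM with sgNS, against 16.0 and 18.6 TPM after METTL16 KO (log2 fold change -0.23, adjusted p = 0.017, limma), and this call was lost without sgNS replicate 1 (adjusted p = 0.068) and without METTL16 KO replicate 1 (log2 fold change -0.12, adjusted p = 0.21), and in 3 of the other alternatives. ZEB1 had a log2 fold change of 0.13 (adjusted p = 0.13, limma). Under the filter, SNAI2 was measured at 0.21 and 0.29 TPM with sgNS, against 1.41 and 1.51 TPM after METTL16 KO, and in the fit without the filter its log2 fold change was 2.16 (adjusted p = 0.0011, limma). ZEB2 stood at 0.09 and 0.22 TPM against 0.78 and 0.62 TPM (1.69, adjusted p = 0.010, limma). FOXC2, at 0.08 and 0.09 TPM in sgNS and listed at 0 in METTL16 KO, was lower in that fit (adjusted p = 0.020, limma). These 3 were low in all libraries and were named after their values were seen.

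Of the 14 epithelial regulators tested, 10 were higher and 1, FOXA1, was lower (median log2 fold change 1.02). Among all genes tested 50.1% were higher and 25.6% lower. After median-ratio scaling 10 of the regulators were higher and 4 lower. Among those called higher, OVOL1 and SPINT1 had means under 1 TPM in sgNS and passed the filter through METTL16 KO. The list was written with earlier results of these data known. ELF3, an epithelial ETS factor, rose from 22.1 and 24.4 TPM to 162 TPM in both METTL16 KO libraries (log2 fold change 2.80, adjusted p = 1.6e-11, limma). The Krüppel-like factors KLF4 (3.06) and KLF5 (2.93) rose more on the log2 scale from lower levels. FOXA1, a pioneer factor of liver, had a log2 fold change of -0.15 (adjusted p = 0.0055, limma), with -0.35 after median-ratio scaling, and its call was lost without METTL16 KO replicate 2 (adjusted p = 0.082). Of 9 mesenchymal genes tested, 4 rose and 4 fell (median -0.02), with 3 and 5 after median-ratio scaling and 2 and 4 after quantile normalization. SPARC (1.80, and 0.97 with a pseudocount of 1), TGFB2 (1.77) and TAGLN (1.01) rose most, the first and last from under 1 TPM in sgNS. TAGLN lost its call after quantile normalization (0.45, adjusted p = 0.26) and without sgNS replicate 2 (adjusted p = 0.066). S100A4 (-1.38, and between -1.81 and -0.95 when single libraries were left out), MMP14 (-0.52) and LOX (-0.50) fell. FN1, fibronectin, was measured at 401 and 386 TPM with sgNS, against 395 and 380 TPM after METTL16 KO (-0.02, adjusted p = 0.59, limma).

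The libraries were checked for the labelled cell type. All 10 hepatocyte and hepatoma markers were tested, 7 were higher and 2 lower, and their sum was 18566 to 18652 TPM in sgNS and 31756 to 32215 TPM in METTL16 KO. AFP made much of this difference, with 1737 and 1793 TPM in sgNS and 10387 and 10197 TPM in METTL16 KO. Of the 6 cholangiocyte markers, 3 were tested, 1 higher and 2 lower, and the sum was 258 TPM in both sgNS libraries and 243 to 244 TPM in METTL16 KO, most of it SOX9, with KRT7 at 0 to 0.05 TPM and KRT19 at 0.04 to 0.21 TPM. The 8 fibroblast and stellate markers summed to 6.80 to 6.91 TPM against 6.84 to 7.41 TPM, with 2 tested, 0 higher and 1 lower, and DCN was at 0 in sgNS, with 0.05 and 0.02 TPM in METTL16 KO. The 6 endothelial markers summed to 5.05 to 5.50 TPM against 2.77 to 3.27 TPM, with 1 tested, which was lower, and KDR and TEK were at 0 in every library. The 7 leukocyte markers summed to 1515 to 1558 TPM against 920 to 935 TPM, with 3 tested, 2 higher and 1 lower. Nearly all of this was LYZ, while PTPRC, which marks leukocytes, was at 0.15 to 0.48 TPM. In such bulk samples, fewer cells of a type and less RNA per cell cannot be told apart. What part the change in hepatocyte markers had in the members' values was not tested.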

How the data were processed

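RNA-seq of Huh7 cells was available as 1 table of gene symbols with a column for each of the 4 libraries. According to the methods, paired reads were trimmed (Cutadapt), aligned to GRCh38 (STAR) and summarised per gene (RSEM) by the authors, who deposited TPM rounded to 2 decimals. The study calls the unit RPKM, but each column sums to 1000000. Its library kit captures mRNA and keeps the strand, although the labels also name ribosomal RNA depletion. Versions, annotation and the strand setting of the counting are not given in the sources used here. Groups and replicate numbers were taken from the titles.

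Genes with a mean of at least 1 TPM (11971) were tested with limma 3.58.1 in R 4.3.3 (lmFit, eBayes with a mean-variance trend) on log2(TPM + 0.1), METTL16 KO against sgNS, two-sided, with Benjamini-Hochberg adjustment over all genes tested. The model was also run on simulated data in which only a small share of the genes changed. In these data most genes were called, so that run does not bear on the calls made here. Ratios, sums and exact permutation tests were computed in Python 3.11.15. Gene positions were taken from GENCODE release 44 (GRCh38), and sequences are from RefSeq. Members and lists were chosen with earlier results of these data known. The genes named are all members, METTL16, and in each list up to 3 genes with the largest rise and up to 3 with the largest fall among those called whose groups did not overlap. Genes named beyond this rule were chosen after their values were seen or for their known role: CDH9, CLDN12, CTNND1, JUP, TJP3, CGN, ZEB1, SNAI2, ZEB2, FN1, FOXC2, GJB2, GJC1, PANX1, the genes near CLDN1, those named for the filter and the cell type markers. Alternatives were pseudocounts of 1 and 0.01, no filter, a minimum mean of 5 TPM, median-ratio scaling, quantile normalization, a replicate block, limma without trend, a linear model without moderation, and each library left out in turn.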

Additional observations from a re-analysis of the deposited data

How the results depend on the processing

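Over the alternatives, 112 of 116 log2 fold changes of METTL16 and the 8 members tested kept their direction and their side of the threshold, and 0 changed sign. METTL16 passed in all 13 alternatives, with log2 fold changes from -0.69 to -0.45. The 4 lost calls were those of CDH1 and CLDN14 given above, so that 0 members were lower without moderation, where 6 were higher, and between 0 and 1 were lower when single libraries were left out. Under a minimum of 5 TPM CLDN14 was not tested. Where a library was left out of a group, the lone library of that group was assumed to vary like the others. Of 555 values of the 44 other genes named by rule, 527 kept direction and side, 27 lost their call, and 1, LMNB2 after median-ratio scaling, changed sign (-0.026). Without moderation 34 list genes were higher and 21 lower, against 54 and 33, and over all genes 4049 were higher and 1949 lower. After quantile normalization the log2 difference of the CDH1 to VIM ratio was -0.74 and that of summed claudin TPM was 1.38. The causes of these changes were not tested.

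The groups share replicate numbers, but libraries of the same number did not deviate together (correlation of their deviations -0.044, over 11971 genes). This value rests on 1 difference between libraries per group, so it cannot tell whether same-numbered libraries were prepared together. With the replicate block METTL16 had a log2 fold change of -0.50, 7 members were higher and 1 lower, 54 list genes were higher and 34 lower, and 6048 and 3112 of all genes, and no call of a member changed. Without read counts, how far depth limits CLDN2 and CLDN14 is unknown.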
